A study of Mus musculus with 12 samples.

Results

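The 40 genes described here encode the machinery of DNA replication and mitosis, the steps of the cell cycle that follow G1. They were chosen by name: each row of the deposited table whose gene name is on a list of 40 symbols was taken, and all 40 were found among 34986 rows. The study compared livers of female C57BL/6 mice aged 16 weeks in 2 groups of 6 mice. One group received VPA (valproic acid, used against seizures and known for liver injury). The other received VPA and OCA (obeticholic acid, an agonist of the bile acid receptor FXR) and is called VPA_OCA. VPA is therefore shared by both groups, no transgene or deletion is named in the labels, and the labels give neither dose nor duration. Mice without VPA were not analysed here. The 12 libraries, 1 per mouse, were made from RNA of whole frozen liver.

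Before S phase, the origin recognition complex, Cdc6 and Cdt1 load the Mcm2 to Mcm7 helicase onto replication origins, and geminin (Gmnn) blocks reloading in the same cycle. Cyclin E with Cdk2 fires the origins, Pcna clamps the polymerases to the template, and Rrm1, Rrm2, Tyms and Tk1 supply deoxynucleotides. E2F factors switch on the genes of this phase. Cyclins A and B with Cdk1, the Aurora and Polo kinases, the Bub checkpoint proteins and the kinesins then drive mitosis, under Foxm1 and the DREAM complex. Adult hepatocytes are mostly quiescent, so a whole liver holds few cycling cells, and some of those are not hepatocytes.

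The normalized counts of a library summed to 20236900 to 22087711, and the 40 genes together made up 0.0143% to 0.0179% of that sum. Several features set libraries apart, the first and second known from earlier results of these data. Mitochondrial genes took 9.09% to 11.7% of the counts in replicates 1 to 3 of both groups and 5.84% to 7.51% in replicates 4 to 6. Skeletal muscle markers summed to 24.2 FPKM (fragments scaled by gene length and library total) in VPA replicate 4 and 6.34 in VPA replicate 5, and to at most 2.20 elsewhere. VPA_OCA replicate 6 had high mitotic transcripts, as described below. Albumin (Alb), the defining hepatocyte product, ranged from 79700 to 133000 FPKM over the libraries.

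No replication or mitosis gene passed the test. Of the 40 genes, 0 were higher and 0 were lower in VPA_OCA at an adjusted p under 0.05 (limma, adjusted over all 19006 genes tested), against 137 genes or 0.721% of the table (84 higher, 0.442%, and 53 lower, 0.279%). All 40 had passed the filter on low values, which asked for 6 or more libraries with a normalized count of 1 or above. At an unadjusted limma p under 0.05 the count was also 0 of 40, where 9.55% of all tested genes fell (1815 of 19006). The smallest adjusted p of a member was 0.544, for Mcm2. For none of the 40 did the values of the groups fail to overlap, which happened for 274 genes or 1.44% of the table. The fold changes were 22 positive and 18 negative, with a median log2 fold change of 0.10 against -5e-04 over all genes, between -0.55 for Bub1 and 0.54 for Cdc6. With the replicate number as a block the whole table gave 210 calls (1.10%), and with a term for replicate numbers 1 to 3 against 4 to 6 it gave 404 (2.13%). Both fits called 0 members, as did the fit without VPA replicates 4 and 5, where Mcm2 measured a log2 fold change of 0.64 (limma adjusted p = 0.238). At an unadjusted limma p under 0.05 the first held 1 member (Mcm2) against 12.5% of all genes, and the second held 2 (Mcm2 and Tk1) against 14.5%.

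**Figure D1:**
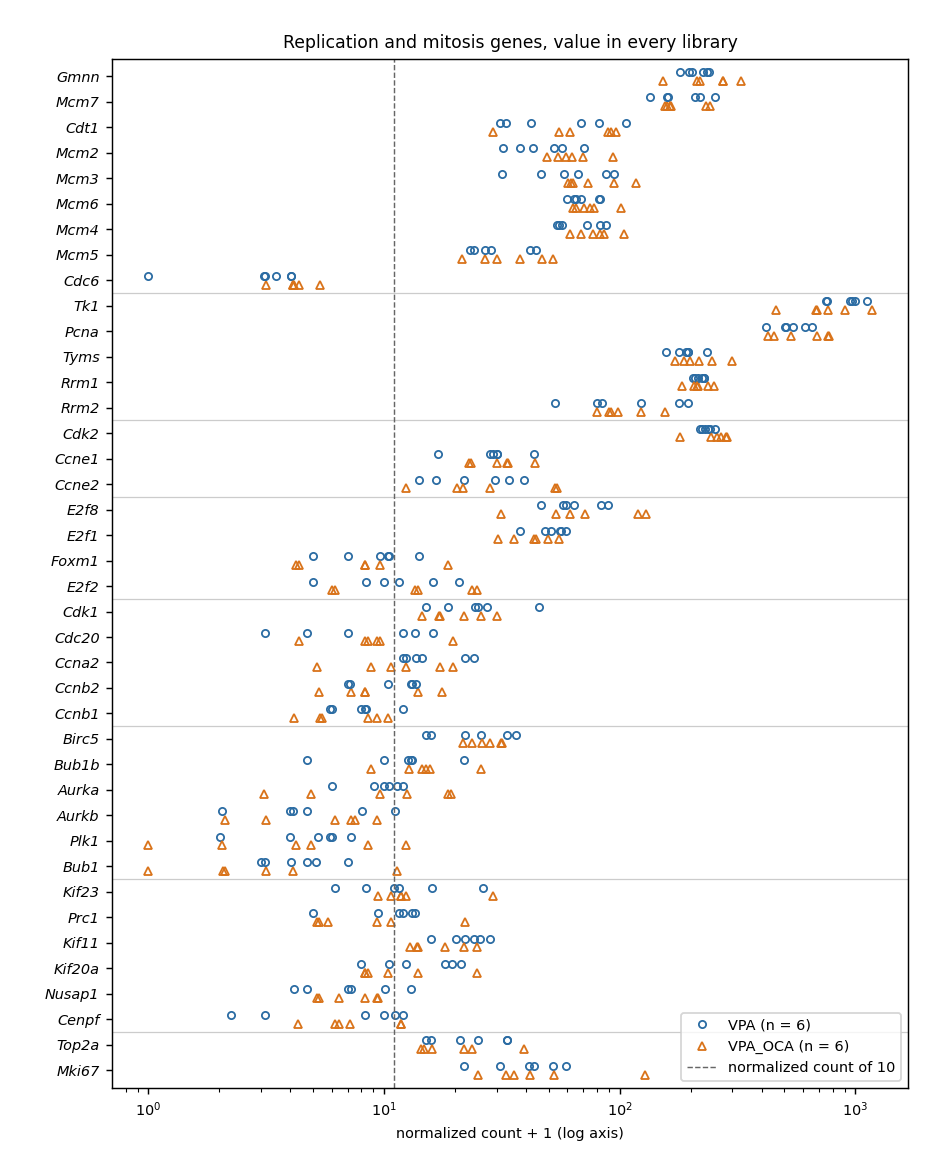
Normalized counts plus 1 of each of the 40 genes in each of the 12 libraries, on a log axis, with the genes grouped by role. The points of VPA and VPA_OCA overlap for every gene, and 10 of the 12 genes under 10 normalized counts on average are mitotic.

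The precision differed between genes. The counts are library-scaled, and 1 normalized count stands for about 1 read in most libraries, so a gene whose mean over the 12 libraries was under 10 normalized counts was set aside as too low to judge. These were 12 of the 40, from Cdc6 (2.66), Bub1 (3.24), Plk1 (4.30) and Aurkb (4.79) through Nusap1 (6.50), Ccnb1 (6.65), Cenpf (6.87), Foxm1 (8.17) and Cdc20 (8.69) to Prc1 (9.25), Ccnb2 (9.41) and Aurka (9.58). The genes just above the limit were E2f2 (12.3), Kif20a (12.7), Kif23 (12.7) and Bub1b (13.0). Cdc6, Plk1 and Bub1 were each listed at 0 in 1 library. With a limit of 5 the count was 4, and with 20 it was 18. Among the other 28, 18 fold changes were positive and 10 negative, between -0.49 and 0.425 on the log2 scale. For 23 of these 28 the 95% interval of the difference lay within 2-fold in either direction, and for 8 (Pcna, Gmnn, Mcm7, Tyms, Rrm1, Cdk2, Mcm6 and Ccne1) it lay within 1.5-fold. The exceptions at 2-fold were Bub1b, Ccna2, E2f2, Kif20a and Cdt1.

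**Figure D2:**
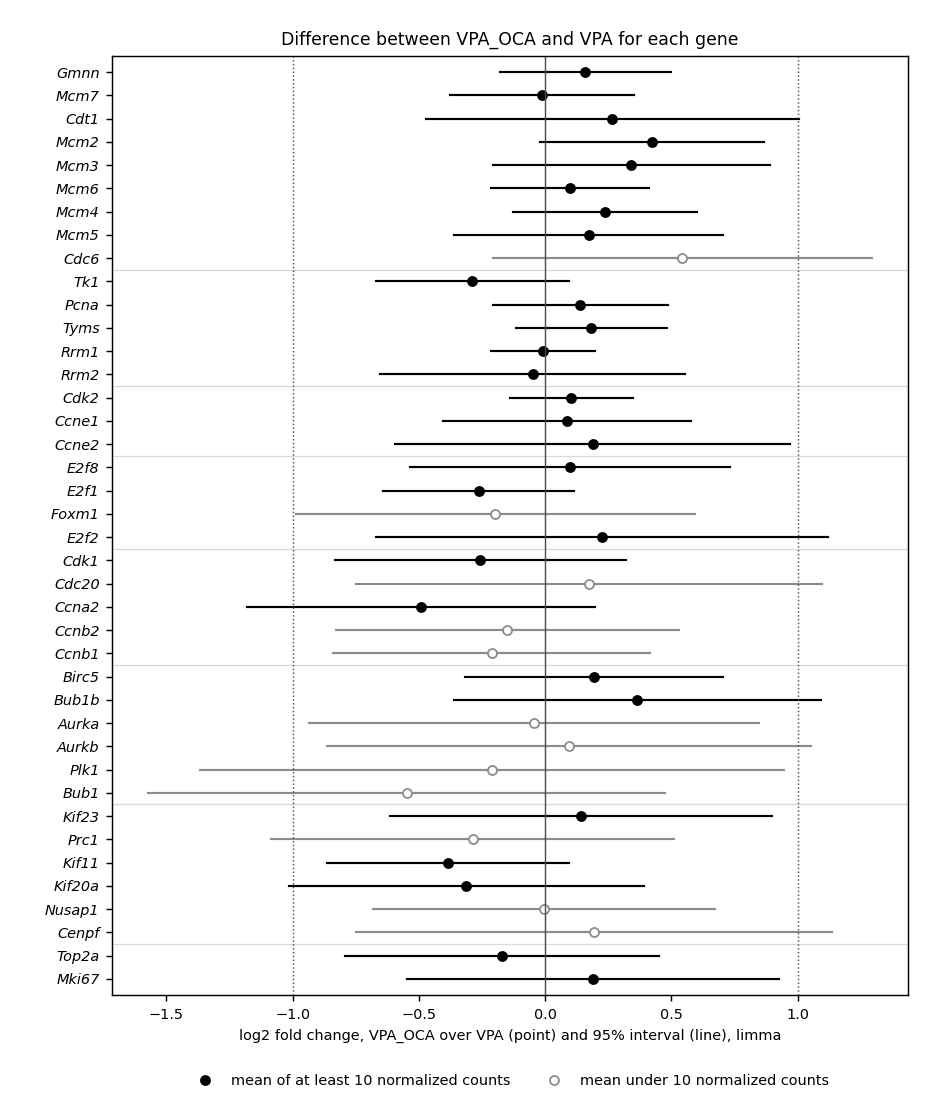
Log2 fold change of VPA_OCA over VPA (points) with its 95% limma interval (lines) for each gene, grouped by role; dotted lines mark 2-fold. Open grey points are the 12 genes under 10 normalized counts on average, and every interval includes 0.

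Promoter sequences are shown for a pair of helicase genes and a pair of mitotic genes, since these groups are described below by library. The 250 bases before the RefSeq start are given (GRCm38.p6, all on the minus strand), 5′ to 3′: Mcm2 at chr6:88898781-88899030, Mcm6 at chr1:128359706-128359955, Mki67 at chr7:135716380-135716629 and Top2a at chr11:99024190-99024439. Capitals mark TTTGAA (the cell cycle homology region, CHR), TTCCCGC and TTGGCGC (forms of the E2F site) and CCAAT (the NF-Y site) on either strand.
Mcm2: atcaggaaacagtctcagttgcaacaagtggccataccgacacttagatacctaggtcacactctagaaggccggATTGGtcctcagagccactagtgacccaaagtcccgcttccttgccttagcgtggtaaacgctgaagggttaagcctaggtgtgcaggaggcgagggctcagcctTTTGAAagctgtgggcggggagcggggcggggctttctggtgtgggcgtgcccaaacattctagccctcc
Mcm6: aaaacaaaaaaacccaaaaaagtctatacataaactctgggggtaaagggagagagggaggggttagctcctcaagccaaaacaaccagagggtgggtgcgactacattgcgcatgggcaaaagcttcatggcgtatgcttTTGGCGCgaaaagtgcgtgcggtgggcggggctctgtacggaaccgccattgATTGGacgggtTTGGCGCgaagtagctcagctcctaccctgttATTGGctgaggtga
Mki67: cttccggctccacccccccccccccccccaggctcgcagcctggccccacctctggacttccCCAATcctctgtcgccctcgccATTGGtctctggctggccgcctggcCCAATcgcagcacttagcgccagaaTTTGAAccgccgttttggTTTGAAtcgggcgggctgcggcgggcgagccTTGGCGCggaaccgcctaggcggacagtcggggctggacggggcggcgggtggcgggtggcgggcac
Top2a: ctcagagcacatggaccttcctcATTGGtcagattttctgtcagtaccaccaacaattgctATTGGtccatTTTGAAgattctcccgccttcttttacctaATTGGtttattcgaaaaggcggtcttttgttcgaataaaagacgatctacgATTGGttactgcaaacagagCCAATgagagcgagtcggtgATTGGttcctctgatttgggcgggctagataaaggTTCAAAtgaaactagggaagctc
In RefSeq windows of 300 bases (250 before and 50 after the start), available for 33 members, TTTGAA stood in 15 (45.5%) against 20.2% of 27025 genes. It was found in 12 of 16 mitotic members and in 3 of 17 others. Either E2F form was found in 13 members (39.4%, all genes 7.79%), in 3 of 16 mitotic members and in 10 of 17 others. Of the E2F forms, TTCCCGC stood in 6 members (18.2%, all genes 5.29%) and TTGGCGC in 10 (30.3%, all genes 2.85%). CCAAT stood in 25 (75.8%, all genes 41.1%) and can share bases with the reverse complement of TTGGCGC. The shares describe letters in these windows and were not tested.

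The licensing and helicase genes had mostly positive differences, none past the test. Of these 9 genes 8 had a positive log2 fold change, with a median of 0.24, and of Mcm2 to Mcm7 alone 5 of 6 had one, with a median of 0.205. Mcm2 (chr6:88883474-88898780, GRCm38), a helicase subunit, had 31.1 as its lowest, 46.8 as its median and 69.5 as its highest normalized count in VPA, and 48.1, 60.0 and 92.3 in VPA_OCA. The means were 47.9 ± 14.1 and 63.8 ± 15.6 (SD, n = 6 each), a log2 fold change of 0.425 with an interval of -0.02 to 0.87 (limma adjusted p = 0.544), and the groups overlapped. Mcm3 ranged over 30.8, 61.2 and 93.7 in VPA and 59.1, 67.3 and 116 in VPA_OCA (log2 fold change 0.34, limma adjusted p = 0.762). Mcm4 ranged over 53.0, 63.9 and 86.3 against 60.6, 78.7 and 104 (0.24, limma adjusted p = 0.741). The highest VPA_OCA value of all 3 was replicate 6. Mcm7 was measured at 133, 184 and 252 against 154, 164 and 242, a log2 fold change of -0.01 with an interval of -0.375 to 0.35 (limma adjusted p = 0.996). Its values in the groups covered nearly the same range.

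Gmnn, the licensing inhibitor, ranged over 179, 213 and 238 normalized counts in VPA and 151.5, 246 and 327 in VPA_OCA. VPA_OCA held both its lowest and its highest value, and the log2 fold change was 0.16 (limma adjusted p = 0.844). Cdc6, a helicase loader, was too low to judge, at 0, 2.28 and 3.02 in VPA and 2.15, 3.12 and 4.33 in VPA_OCA. Its log2 fold change of 0.54 (limma adjusted p = 0.705) rests on values of a few reads. Cdt1, the partner of Cdc6, measured 0.27 with an interval of -0.47 to 1.004, and Mcm5 and Mcm6 measured 0.17 and 0.10.

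The S phase and nucleotide genes, with Tk1 and Pcna the most abundant of the 40, split in direction, 2 positive and 3 negative. Tk1 (chr11:117815526-117826092), thymidine kinase of the salvage pathway, ranged over 749, 955 and 1124 normalized counts in VPA and 460.5, 725 and 1173 in VPA_OCA. Its means were 923 ± 146 and 778 ± 241 (SD, n = 6 each), a log2 fold change of -0.29 with an interval of -0.67 to 0.10 (limma adjusted p = 0.688). The lowest value of all 12 was VPA_OCA replicate 6 and the highest was VPA_OCA replicate 2, so VPA_OCA spanned the VPA values on both sides. Tk1 shares 83 of its 5198 exon bases with Afmid, a gene on the opposite strand whose mean was 2775 against 850.6 for Tk1, and the use of strand in counting is not given in the sources used here. Afmid was also lowest in VPA_OCA replicate 6, at 1580, and its part in the Tk1 value was not tested.

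Pcna (chr2:132249162-132253314), the sliding clamp, ranged over 418, 523 and 656 in VPA and 424, 609.7 and 771 in VPA_OCA. Its log2 fold change was 0.14 with an interval of -0.21 to 0.49 (limma adjusted p = 0.866). The 3 highest Pcna values were VPA_OCA replicates 1 to 3. Rrm1, the large subunit of ribonucleotide reductase, had the narrowest interval of the 40, -0.215 to 0.20 around a log2 fold change of -0.01. Its small subunit Rrm2 measured -0.05 with an interval of -0.65 to 0.56, and Tyms, thymidylate synthase, measured 0.18 with -0.12 to 0.48.

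Cyclin E and its kinase had small positive differences. Cdk2 measured a log2 fold change of 0.10 (interval -0.14 to 0.35), Ccne1 0.09 (-0.41 to 0.58) and Ccne2 0.19 (-0.60 to 0.97). Ccne2 ranged over 13.1, 24.7 and 38.1 normalized counts in VPA and 11.4, 23.8 and 53.1 in VPA_OCA, and its lowest value was VPA_OCA replicate 6. Of the transcription factors, the activator E2f1 ranged over 36.6, 52.4 and 58.1 in VPA and 29.4, 42.7 and 54.4 in VPA_OCA (log2 fold change -0.26, limma adjusted p = 0.720). Its groups overlapped over most of their range. The repressor E2f8 measured 0.10, E2f2 0.225 and Foxm1, which drives mitotic genes and was too low to judge, -0.20.

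The mitotic genes are the 19 that encode the A and B cyclins with Cdk1 and Cdc20, the kinases and checkpoint, the spindle and cytokinesis proteins, and the chromosome proteins Mki67 and Top2a. Of these, 7 fold changes were positive and 12 negative, with a median of -0.15, and 10 of the 19 were too low to judge. Kif11, the kinesin that separates the spindle poles, ranged over 14.9, 22.1 and 27.1 normalized counts in VPA and 11.9, 15.1 and 23.8 in VPA_OCA. Its log2 fold change was -0.385 with an interval of -0.865 to 0.09 (limma adjusted p = 0.658). Ccna2, cyclin A2, ranged over 11, 13.1 and 23.2 in VPA and 4.17, 10.6 and 18.7 in VPA_OCA. Its log2 fold change was -0.49 with an interval of -1.18 to 0.20 (limma adjusted p = 0.711). A 2-fold lower level lies within its interval.

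Mki67 (chr7:135689784-135716361), which coats mitotic chromosomes and marks cycling cells, ranged over 20.9, 41.1 and 58.4 normalized counts in VPA and 23.9, 37.6 and 126.5 in VPA_OCA. The value of 126.5 was VPA_OCA replicate 6, and the next highest of the group was 51.5. The log2 fold change was 0.19 with all libraries and -0.11 without that one (limma adjusted p = 0.930 and 0.937). Top2a, the topoisomerase that untangles chromosomes, measured -0.17, and Cdk1, the mitotic kinase, -0.26 (limma adjusted p = 0.85).

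VPA_OCA replicate 6 was high for most mitotic members. It was the highest VPA_OCA library for 13 of the 19 mitotic members and 10 of the 21 others, 23 of all 40, while it was highest in its group for 18.0% of all tested genes. Its value over the median of the other VPA_OCA libraries had a median of 2.04 over the mitotic members. The ratio was 3.65 for Mki67, 2.61 for Kif23 and 2.55 for Top2a, but 0.603 for Tk1, 0.421 for Ccne2 and 0.921 for Birc5 (survivin, of the chromosomal passenger complex). Summed FPKM of the mitotic members was 11.1 in this library and 4.32 to 6.36 in the other VPA_OCA libraries. The list of 40 further mitosis genes did not have its highest sum there, with 109 FPKM against 114 in VPA_OCA replicate 2 and 94.3 to 105 in the other VPA_OCA libraries. Abundant genes such as Pttg1 (mean 32.0 FPKM) weigh most in that sum, so it does not describe the genes one by one. Of the list, Ndc80, Nuf2, Kif2c, Kif4, Tpx2, Racgap1, Anln, Aspm and Ncapg were highest of VPA_OCA in replicate 6. So were Ncapd2, Ncaph, Cdca3, Incenp, Dlgap5, Hmmr, Melk and Ube2c, some at a few reads, such as Melk at 4.15 normalized counts. Others were not, among them Ttk, Mad2l1, Bub3, Spc24, Spc25, Cenpa, Cenpe, Kif14, Kif15, Kif18a, Kif22 and Ect2. Smc2, Smc4, Pttg1, Espl1, Cdca5, Cdca8, Nek2 and Cks1b were not either. In VPA the sum over the mitotic members ran from 4.82 to 9.66, highest in VPA replicate 4. That library led its group for 9 of the 19 mitotic members and for 19.3% of all tested genes. The group means were 6.34 ± 1.82 in VPA and 6.23 ± 2.49 in VPA_OCA (SD, n = 6 each), and 5.25 ± 0.751 in VPA_OCA without replicate 6 (n = 5). Without it the mitotic members had 3 positive and 16 negative fold changes with a median of -0.30, and all 40 had 17 positive and 23 negative with a median of -0.06. The count passing the limma test remained 0 (0.589% of all genes passed), and at an unadjusted p under 0.05 it was 1, Bub1, which is too low to judge (9.21% of all genes). Replicate 6 was left out because it was high in these same genes, so lower VPA_OCA values for them follow from that choice. Leaving out VPA replicate 4 instead gave 26 positive and 14 negative fold changes over all 40, with a median of 0.09.

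Some markers of other cell types were also high in these libraries. The 12 leukocyte markers summed to 58.9 FPKM in VPA_OCA replicate 6, against 11.9 to 23.6 in the other VPA_OCA libraries, and to 17.0 to 45.1 in VPA, highest in replicate 4. Of the 58.9, 44.7 came from Ly6d, and the sum without Ly6d (a split made after its values were seen) was 14.2 in this library against 8.08 to 11.9 in the other VPA_OCA libraries and 7.95 to 15.9 in VPA, highest in VPA replicate 4. This library led the VPA_OCA group for 7 of the 12 leukocyte markers. Kupffer cell markers summed to 260 in VPA replicate 4, where all 8 were the highest of VPA (19.3% of all tested genes were). They summed to 183 in VPA_OCA replicate 6, close to 176 in VPA_OCA replicate 1. Each of these VPA_OCA libraries led its group for 4 of the 8, and for 18.0% and 15.7% of all tested genes. Endothelial markers summed to 101 in VPA replicate 4 (52.2 to 94.0 elsewhere in VPA) and 84.1 in VPA_OCA replicate 6 (51.9 to 75.4 elsewhere in VPA_OCA). Stellate cell markers summed to 94.3 in VPA replicate 4 (65.5 to 89.4 elsewhere in VPA) and 90.9 in VPA_OCA replicate 6 (62.7 to 83.4 elsewhere in VPA_OCA). Cholangiocyte markers summed to 32.1 in VPA_OCA replicate 6 (15.0 to 28.8 elsewhere in VPA_OCA). In VPA replicate 4 they stood at 22.4, within the 18.1 to 33.1 of VPA. Erythroid markers were lowest of VPA in VPA replicate 4, at 852 against 1240 to 2190, and stood at 1420 in VPA_OCA replicate 6, within the 756 to 2430 of its group. None of the 12 leukocyte, 8 Kupffer, 6 endothelial, 8 erythroid, 6 stellate cell or 6 cholangiocyte markers passed the limma test between the groups. With the term for replicate numbers 1 to 3 against 4 to 6, the endothelial marker Lyve1 passed (log2 fold change -0.64, limma adjusted p = 0.0314). All 6 endothelial fold changes were negative, with a median of -0.19. The part of all these markers in the mitotic values was not tested. In bulk liver, fewer cells of a type and less RNA per cell cannot be told apart.

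**Figure D3:**
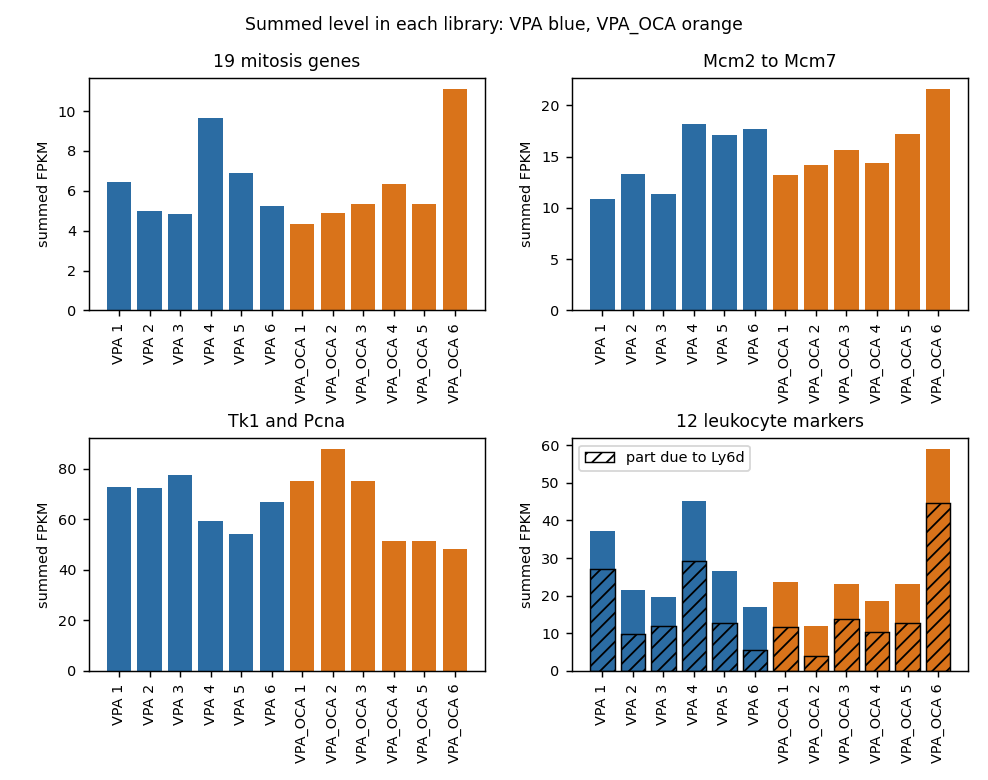
Summed FPKM in each of the 12 libraries for mitotic members, helicase subunits, Tk1 with Pcna, and leukocyte markers, with the hatched part of the last due to Ly6d. VPA_OCA replicate 6 has the highest mitotic sum (11.1) and leukocyte sum (58.9) and the lowest sum of Tk1 and Pcna (48.3).

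**Figure D4:**
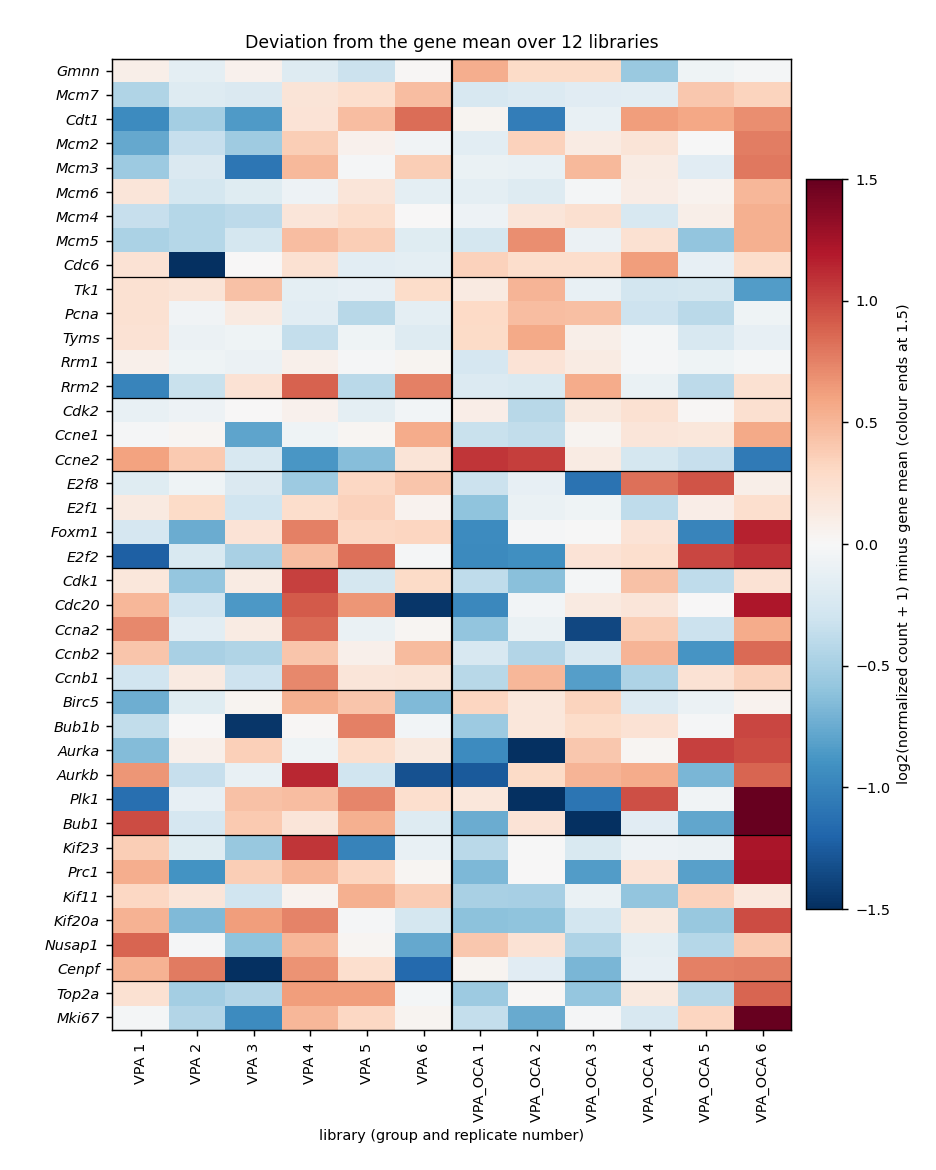
Each gene's log2(normalized count + 1) minus its mean over the 12 libraries, by library (columns) and gene (rows, grouped by role), with colour ending at 1.5. The column of VPA_OCA replicate 6 is highest of the 12 for 18 of the 40 genes, and that library is highest for 9.52% of all tested genes.

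Values were also compared by replicate number. The mean over both groups was higher in replicates 4 to 6 than in 1 to 3 for 33 of the 40 genes and for 48.1% of all tested genes; among the 33 were 18 of 19 mitotic members and 1 of the 5 S phase and nucleotide genes (Rrm2), a difference that was not tested. For the mitotic members VPA replicate 4 (a summed 9.66 FPKM) and VPA_OCA replicate 6 (11.1) are both in replicates 4 to 6, while the other libraries of that set, at 5.23 to 6.87, overlapped the 4.32 to 6.45 of replicates 1 to 3. The values did not overlap between these sets for Pcna, Mcm7 and Cdt1, where 10.6% of all tested genes had no overlap. Within replicates 1 to 3, Mcm2 measured 31.1, 42.0 and 36.9 in VPA and 48.1, 68.7 and 58.4 in VPA_OCA, with no overlap. Mcm3, Mcm4, Cdc6, Pcna, Gmnn and Birc5 did not overlap there either, so 7 of the 40 did not, a share near the 18.6% of all tested genes that separated in this way. Within replicates 4 to 6 it measured 69.5, 56.1 and 51.6 against 61.7, 53.7 and 92.3, with overlap, and Tk1 was the 1 member without overlap, where 16.8% of all tested genes had none. The log2 fold changes were 0.65 and 0.20, and the median over Mcm2 to Mcm7 was 0.50 and -0.03. No member passed in replicates 1 to 3 alone, where 0.602% of all genes did, or in replicates 4 to 6 alone, where 0.375% did. In replicates 1 to 3 alone 5 members had an unadjusted limma p under 0.05 (Mcm2, Mcm3, Mcm4, Pcna and Gmnn, all positive), against 12.3% of all genes, with a smallest limma adjusted p of 0.304. In replicates 4 to 6 alone 1 had one (Tk1, negative), against 11.4%, with a limma adjusted p of 0.352. The difference between the sets was not tested. The labels do not say what the numbers stand for.

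**Figure D5:**
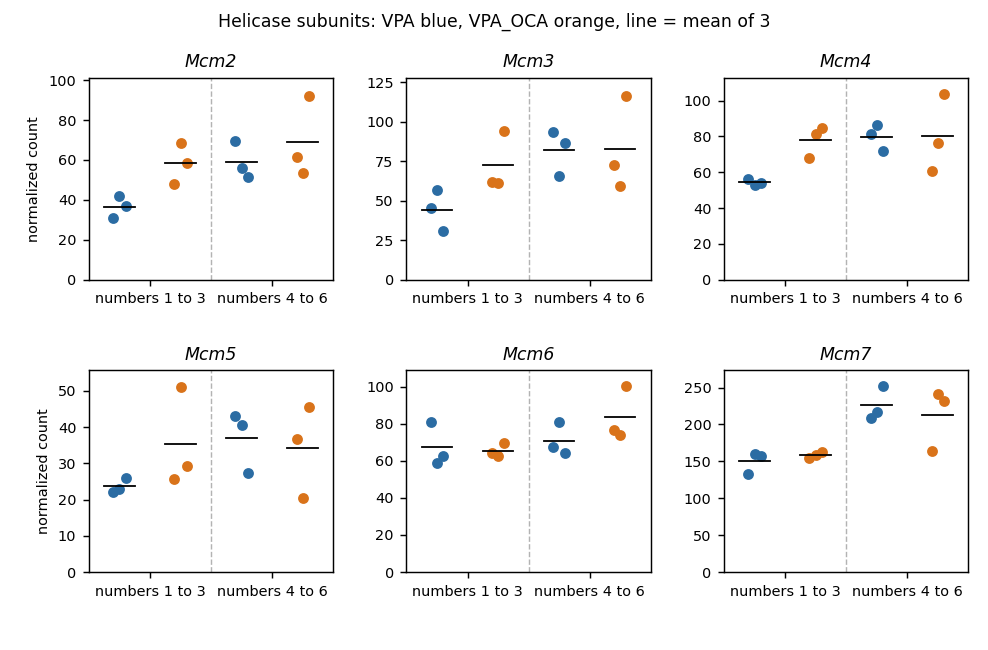
Normalized counts of Mcm2 to Mcm7 in replicates 1 to 3 and 4 to 6, VPA in blue and VPA_OCA in orange, each point 1 library and each line the mean of 3. For Mcm2 the 3 VPA points of replicates 1 to 3 (31.1 to 42.0) lie below the 3 VPA_OCA points (48.1 to 68.7), while the points of replicates 4 to 6 overlap; 18.6% of all tested genes separate within replicates 1 to 3, Mcm3 and Mcm4 among them.

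Per length, the 40 genes spanned a wide range. Mean FPKM over the 12 libraries descended in the order Tk1 (36.2 ± 8.26), Pcna (29.7 ± 6.54), Gmnn (13.5 ± 2.83), Mcm7 (8.20 ± 1.78), Tyms, Rrm1, Cdk2 and Rrm2 (4.62), Cdt1 (2.21), and down to Cdc6 (0.0391). Of the 39 pairs of neighbours in this order, 5 differed by more than the larger SD, and Tk1 and Pcna did not. The 5 were Pcna and Gmnn, Gmnn and Mcm7, Mcm7 and Tyms, Rrm2 and Cdt1, and Cenpf and Cdc6. Of the 40 genes, 31 lay under the median FPKM of all tested genes (2.17) and 14 reached an FPKM of 1. Mki67 averaged 0.407 ± 0.251.

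Further genes of the same steps came from lists written with earlier results known: 0 of 17 further licensing and origin genes, 0 of 26 fork and nucleotide genes, 0 of 39 further mitosis genes and 0 of 15 further E2F and DREAM regulators passed in either direction. Their median log2 fold changes were 0.10, 0.13, 0.05 and -0.02. Pold3, a subunit of polymerase delta, measured 182 ± 9.84 normalized counts in VPA and 230 ± 23.1 in VPA_OCA, a log2 fold change of 0.33 (limma adjusted p = 0.185). Spc25, of the Ndc80 kinetochore complex, measured 143 ± 75.6 and 64.5 ± 5.76 (log2 fold change -0.999, limma adjusted p = 0.104). It passed with the term for replicate numbers 1 to 3 against 4 to 6 (limma adjusted p = 0.017). Its groups overlapped, at 68.5 to 284 in VPA, highest in replicate 1, and 56.9 to 72.7 in VPA_OCA. Of the same complex, Ndc80 and Spc24 measured 0.61 and 0.31 and Nuf2 -0.55 (limma adjusted p = 0.497, 0.473 and 0.633). Cenpa measured 0.36 (limma adjusted p = 0.271).

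Upstream of these genes, cyclin D1 (Ccnd1), which activates Cdk4 and Cdk6 in G1, rose from 2420 ± 427 to 6260 ± 976 normalized counts (SD, n = 6 each). Its log2 fold change was 1.37 (limma adjusted p = 5.74e-05), with no overlap between 1850 to 2890 in VPA and 5450 to 8090 in VPA_OCA. It was the 1 gene of 10 D cyclins, Cdk4 and G1 inhibitors to pass. Its kinase partner Cdk4 measured 0.02 (limma adjusted p = 0.966). Cdkn2c, the inhibitor p18, measured 170 ± 32.9 and 236 ± 64.6 (0.46, limma adjusted p = 0.389) and passed with the term for replicate numbers (limma adjusted p = 0.0318).

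In the authors' deposited table, 23 of the 40 genes were marked present and 0 had an adjusted p under 0.05, where 697 of 12517 present genes (5.57%) did. The authors' deposited table gave its smallest adjusted p among the 40 to Mcm2 (0.172), followed by Tk1 (0.193). The other 17 were not marked present. With Tk1, 9 members share exon bases with a protein-coding gene on the opposite strand, Mcm7 among them. For Kif20a the partner Cdc23 covers 29.3% of the exon bases. The share is 17.4% for Ccne2 (mean 27.7 normalized counts against 277 for Ints8) and 12.5% for Ccna2 (13.4 against 198 for Exosc9). The counts of these 9 members may hold reads of the partner.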

How the data were processed

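RNA of 12 whole livers (6 VPA, 6 VPA_OCA) was extracted with Trizol and made into TruSeq libraries, per the labels' protocols. The submitters' processing notes name edgeR and the build GRCm38.p5. For aligner, counter, annotation and strand, the answer is not given in the sources used here. The authors deposited 1 table with normalized counts (a signal scaled per library), FPKM, p-values and adjusted p-values, per the file headers. Entries written with an exponent and a comma stood 1000-fold too high and were rescaled. They were 218 entries of the normalized count and FPKM columns together, 238 p-values and 88 adjusted p-values. The authors also deposited a GC fraction per gene, per the file headers, which entered no test. Of the low values, 79.6% to 84.6% lay within 0.1 of a whole multiple of 1 step, so whole reads were not recovered and no count model was run.

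limma 3.58.1 (empirical Bayes with an intensity trend) was fitted to log2(normalized count + 1) by group, over 19006 genes with at least 1 in at least 6 libraries, with Benjamini-Hochberg adjustment; fold changes are on that scale, which understates those of low genes. The script was tested on simulated data. The p-values measure the spread between mice. No pair of libraries within a group looked like 1 library deposited more than once (30 pairs, 15.9 to 177 times the sampling variance). Pairs between the groups were not compared in this way. Same-numbered libraries of the groups deviated together (r of 0.15 to 0.478 over 11481 genes, all over 0.1). The replicate numbers were therefore treated as possible pairs in the fit with a replicate block, although the labels do not say what they stand for. The main fit, by group, used no pairs. Of 12 libraries, 4 correlated best with their own number. The best partner of each lay in its own set of replicates, 1 to 3 or 4 to 6. Depth was estimated from the steps at 17879222 to 37766890 reads a library, which for a gene under 10 normalized counts leaves a large counting error. The lowest, median and highest values of each group are given for the 4 members highest per length and the 4 of smallest p in each direction. Mki67 and Ccne2 are given in the same way outside this rule. Any member may be named, and of each list up to 3 others by smallest p. Cdk4, Pttg1, Ndc80, Nuf2, Alb and Ly6d are named outside this limit, as are the mitosis genes listed for VPA_OCA replicate 6. Members and lists were chosen with earlier results of these data known. Unused columns of per-sample values numbered 0. Promoters came from RefSeq (GRCm38.p6), and 33 of 40 members matched; overlaps came from GENCODE M21. Alternatives covered filter, pseudocount, scaling, test, unit, replicate numbers, libraries and threshold.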

Additional observations from a re-analysis of the deposited data

Results flagged for a closer look

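A library far from the other 5 of its group was looked for in 80 groups of values (40 genes in 2 groups), and 8 had one by Dixon's criterion at the 95% level; chance gives about 1 in 20. In 7 of the 8 the library was VPA_OCA replicate 6 and the gene was mitotic. Mki67 was 126.5 normalized counts there against 51.5 in the next library, Top2a 38.4 against 22.7, and Kif23 28.0 against 11.4. Kif20a was 23.9 against 13.0, Prc1 21.1 against 9.74, Cdc20 18.7 against 8.65 and Bub1 10.4 against 3.12. The last 3 genes are among the 12 too low to judge. These 7 share 1 library, so they are not 7 separate events. The other was Cdc6, listed at 0 in VPA replicate 2 with the next library at 2.08, also too low to judge.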

How the results depend on the processing

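Members called remained 0 higher and 0 lower under every alternative run (a filter of 10 normalized counts tested 28 of them), and the smallest adjusted p of a member over them was 0.238 (Mcm2, limma, without VPA replicates 4 and 5). All 1108 recomputed member fold changes stayed uncalled and within 1 SD (residual, between mice) of the main value. Part of the 1108 only repeat the main value. The filters, the fit without trend, the threshold, the replicate block and the replicate-number term cannot change a fold change here. Signs turned for up to 12 of the 40 genes (replicates 4 to 6 alone). Among them were Bub1 (-0.55 to 0.07), Mcm3 (0.34 to -0.03), Kif20a (-0.31 to 0.03) and Mcm4 (0.24 to -0.02). The count of genes called over the table, 137, became 210 with the replicate block, 404 with the term for replicates 1 to 3 against 4 to 6, 72 in replicates 4 to 6 alone and 223 at a threshold of 0.10; with VPA_OCA replicate 6 left out and that term, an alternative chosen after seeing the data, it was 310. The replicate block changed no call of a member. Leaving out 1 library at a time gave 92 to 146 calls and a median member log2 fold change of -0.06 (without VPA_OCA replicate 6) to 0.10 (main 0.10). With a minimum mean of 5 the genes too low to judge were 4 in place of 12. The cause of these differences was not tested. Of the 12 genes too low to judge, 5 had an interval within 2-fold, as did 23 of the other 28; how counting error and the spread between mice share in these intervals was not tested.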
